A study of Mus musculus with 16 samples.

Results

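Transcripts of 9 genes used to recognise duct and epithelial cells were followed across 16 RNA-seq libraries of dispersed mouse islet cells: the simple keratins Krt7, Krt8, Krt18 and Krt19, the duct genes Sox9, Spp1 and Cftr, and the epithelial surface genes Epcam and Cdh1. They were taken from the matrix by symbol, with no threshold on their values, and are 9 of the 25105 genes listed. The label fits only part of what these cells expressed. Krt8, Krt18, Krt7, Epcam, Cdh1 and Spp1 were abundant in every library. The genes most restricted to duct cells, Cftr, Sox9 and Krt19, stood near or below 1 RPKM (reads scaled by gene length and by library size) in nearly all of them. The set is therefore described here as epithelial genes of islet cell cultures with duct genes near 0, and not as a duct cell signature.

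The cells came from islets of Grp78 flox/flox mice, so that every culture, controls included, carried the floxed alleles. They were dispersed, transduced with adenovirus carrying LacZ (Ad-LacZ) or Cre recombinase (Ad-Cre), and kept for 72 hours in 15 mM glucose with DMSO or with JNK-IN-8, an inhibitor of all JNK kinases that was present from the start. Each of the 4 groups, written Ad-LacZ or Ad-Cre and, where inhibitor was added, + JNK inhibitor, held 4 libraries, 1 from each of 4 islet preparations labelled F1 and F2 (female) and M1 and M2 (male). The mice were adults, and the methods give their age only as a wide range over all ex vivo islet work. The labels give 2 animal numbers for each preparation, whereas the study describes single mice, so it is open whether a preparation was 1 mouse or a pool. Both viruses used the CMV promoter, which is not specific to a cell type, and the dispersed islets were mixtures of cell types.

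Keratins are the intermediate filament proteins of epithelial cells. They assemble in pairs of a type II and a type I chain, and Krt8 with Krt18 is the pair of simple epithelia, which islet endocrine cells and duct cells both make. Krt7 (type II) and Krt19 (type I) are added in ducts, Sox9 is the transcription factor of duct and progenitor cells, Cftr the chloride channel of duct cells, and Spp1 encodes osteopontin, a secreted matrix protein made by duct cells but also by macrophages and injured cells. Epcam and Cdh1 (E-cadherin) are the adhesion proteins by which epithelial cells, endocrine cells among them, hold together.

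Depth ran from 7.7 to 25.5 M (mega) reads a library, with a median of 22.0 M. The shallowest library, Ad-Cre + JNK inhibitor F2, is also the only one whose column label begins and ends with other codes. The labels do not say what these codes stand for. In these values the RNA of the targeted gene was higher, not lower, in the libraries with the knockdown label. Hspa5, which encodes GRP78, lay between 395 and 483 RPKM with Ad-LacZ and between 1107 and 1598 RPKM in libraries that carry the Ad-Cre label, a log2 difference of 1.52 (SE 0.18, limma's adjusted p = 0.00212), and since a value covers a whole gene, the floxed exons cannot be read on their own. Directions below are therefore those of the libraries labelled Ad-Cre. Endocrine markers were abundant and acinar enzymes near 0. The 10 beta cell markers summed to at least 33310 RPKM in every library, whereas 19 of 22 acinar markers stayed under 1 RPKM in all 16, among them the enzyme genes Cpa1, Amy2a5 and Cela2a at 0.0338 RPKM or less.

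Krt8 and Krt18 are neighbours on mouse chromosome 15 (GRCm38). Krt8 lies on the minus strand at chr15:101996698-102004482 and Krt18 on the plus strand at chr15:102028180-102032027, so the genes point away from each other with 23698 bases between their annotated starts. Krt7 lies in the same keratin cluster, at chr15:101411043-101430313 on the plus strand. The other members are Krt19 (chr11:100140810-100148665, minus), Sox9 (chr11:112782224-112787760, plus), Spp1 (chr5:104435118-104441050, plus), Cftr (chr6:18170687-18322768, plus), Epcam (chr17:87635979-87651129, plus) and Cdh1 (chr8:106603351-106670246, plus). Values per gene cover the exons of each gene together. Exons of Krt7, Krt8 and Cftr overlap an annotated gene on the opposite strand and those of Spp1 one on the same strand. Whether reads were counted by strand is not given in the sources used here.

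Promoter sequences are shown for the 4 members whose level differed between groups, so that the neighbouring keratin genes, which have separate starts, can be read beside the others. They are RefSeq sequences (GRCm38.p6), read 5′ to 3′ toward the gene and cut at the first annotated start, which leaves chr15:102004483-102004592 (minus) for Krt8, chr15:102027966-102028179 (plus) for Krt18, chr17:87635729-87635978 (plus) for Epcam and chr5:104434861-104435110 (plus) for Spp1. Capitals mark the letters CCAAT on either strand.
Krt8: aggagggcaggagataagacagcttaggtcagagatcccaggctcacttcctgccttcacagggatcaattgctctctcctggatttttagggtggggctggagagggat
Krt18: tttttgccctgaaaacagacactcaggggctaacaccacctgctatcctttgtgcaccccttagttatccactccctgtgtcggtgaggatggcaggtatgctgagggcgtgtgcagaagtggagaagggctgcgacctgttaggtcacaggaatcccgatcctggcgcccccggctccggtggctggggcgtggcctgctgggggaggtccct
Epcam: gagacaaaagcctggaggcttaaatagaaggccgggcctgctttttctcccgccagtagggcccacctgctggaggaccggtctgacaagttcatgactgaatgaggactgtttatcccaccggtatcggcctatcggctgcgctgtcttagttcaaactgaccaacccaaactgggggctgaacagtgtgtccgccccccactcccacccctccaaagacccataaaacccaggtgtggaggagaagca
Spp1: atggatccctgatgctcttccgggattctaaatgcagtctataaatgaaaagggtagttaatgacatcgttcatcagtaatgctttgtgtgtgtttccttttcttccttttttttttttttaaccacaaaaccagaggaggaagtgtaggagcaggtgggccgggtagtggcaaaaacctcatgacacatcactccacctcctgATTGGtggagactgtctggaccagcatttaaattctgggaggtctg
RefSeq windows of 250 bases before to 50 after the start were held for 6 members, 7 windows in all. On both strands, none of the 7 held TGANTCA, the site that AP-1 factors such as cJUN bind, which 7.81% of all 32851 windows hold. None held the ER stress response element ERSE, present in 0.119% of windows. The letters CCAAT alone, which are part of that element and were searched after it, were in 2 of the 7 windows, those of Spp1 (beginning 46 bases before the start, minus strand) and Cftr, against 37.4% of all windows.

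In the Ad-LacZ libraries the order by mean RPKM was Spp1, Krt8, Cdh1, Epcam, Krt18, Krt7, Krt19, Sox9 and Cftr. RPKM are scaled by gene length, so levels can be set side by side, although the Krt7 level depends on an exon length 1.72 times that of its longest coding transcript. Spp1 averaged 161 ± 68.9 RPKM (SD, n = 4), Krt8 81.4 ± 8.90, Cdh1 70.6 ± 6.45, Epcam 52.7 ± 3.97, Krt18 52.3 ± 4.68 and Krt7 44.5 ± 5.46 RPKM. Below a wide gap came Krt19 at 0.817 ± 0.112, Sox9 at 0.481 ± 0.309 and Cftr at 0.0149 ± 0.01004 RPKM. The ranges of neighbours in this order overlapped for Spp1 and Krt8, Krt8 and Cdh1, Epcam and Krt18, Krt18 and Krt7, and Krt19 and Sox9, and were apart for Cdh1 and Epcam, Krt7 and Krt19, and Sox9 and Cftr. Krt8 stood above Krt18 in 15 of the 16 libraries.

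**Figure D1:**
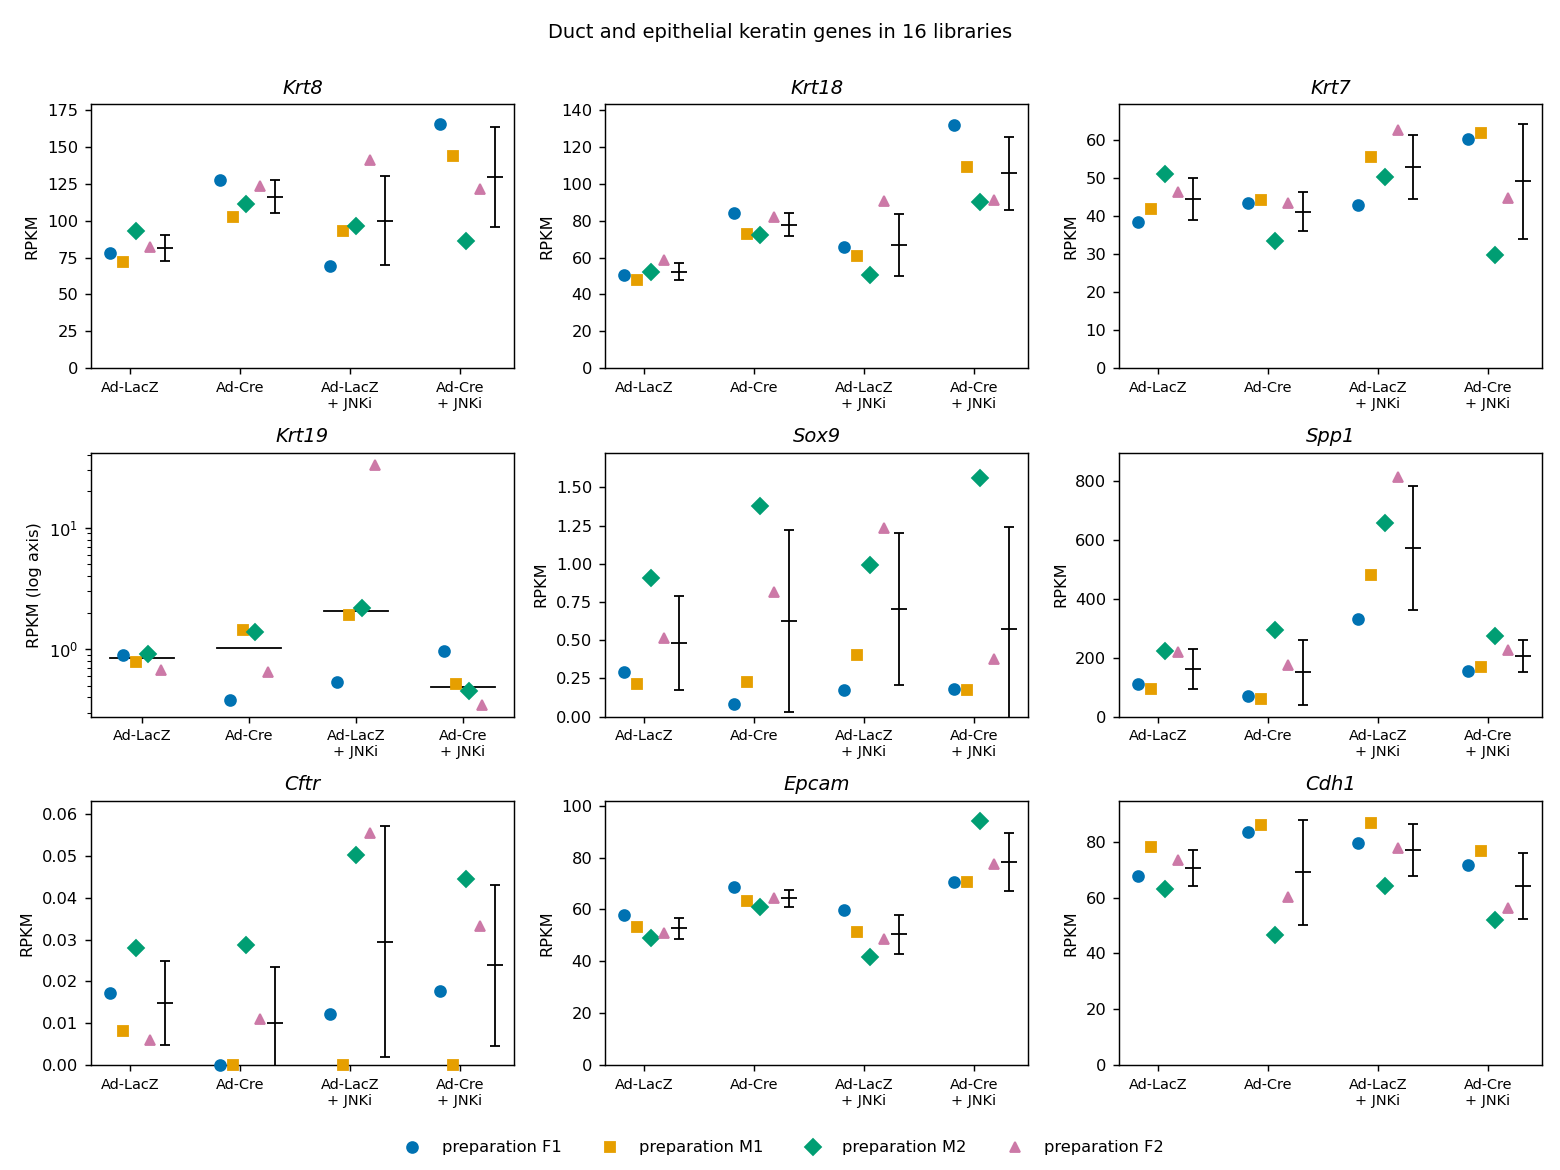
RPKM of the 9 members in each of the 16 libraries, by group, with 1 marker shape and colour per preparation; bars are the mean ± SD of 4 libraries (cut at 0), except for Krt19, which has a log axis and lines at the group medians. Krt8 and Krt18 are higher in all 4 Ad-Cre than in all 4 Ad-LacZ libraries, Spp1 is highest with Ad-LacZ + JNK inhibitor, and 1 Krt19 library stands at 33.0 RPKM.

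The first comparison asked which genes differ between cells given Cre and cells given the control virus. Members were compared on log2(RPKM + 1) after scaling, which understates changes of low genes, and are said to rise or fall when the Benjamini-Hochberg adjusted p of limma over all genes tested is under 0.05. Krt8 and Krt18 rose, and no other member was called. Krt8 measured 78.3, 72.0, 93.2 and 82.0 RPKM in the Ad-LacZ libraries of F1, M1, M2 and F2, and 127.7, 102.8, 111.5 and 123.3 RPKM in the Ad-Cre libraries. Krt18 measured 50.4, 47.8, 52.3 and 58.8 RPKM with Ad-LacZ and 84.4, 72.8, 72.1 and 82.0 RPKM with Ad-Cre. For both genes each Ad-Cre library was above every Ad-LacZ library. The log2 difference was 0.51 for Krt8 (SE 0.13, limma's adjusted p = 0.033) and 0.56 for Krt18 (SE 0.14, limma's adjusted p = 0.0272), which is 1.43-fold and 1.48-fold. An exact two-sided permutation over libraries, which ignores the pairing by preparation, gave each p = 0.0286, the lowest value that its 70 arrangements allow.

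Of the 6 members that passed the filter, 2 were called, both higher, beside 16.5% of the 11590 genes tested, and the median log2 difference was 0.11 for the 6 and -0.00 for all genes. RPKM ranges of 3 members (Krt8, Krt18 and Epcam) did not overlap between the groups, beside 27.7% of genes tested. No member passed an unadjusted p under 0.05 together with a fold of 1.5, the thresholds that the study's methods give for virus, beside 10.3% of genes. The keratin differences stayed between 0.424 and 0.621 on the log2 scale when 1 preparation was left out. Both calls held without M2 and were lost without F1, M1 or F2, where limma's adjusted p was 0.106, 0.135 and 0.159 for Krt8 and 0.105, 0.132 and 0.114 for Krt18, and in 1 fit of all 16 libraries it was 0.114 and 0.0673. Cultures of a preparation ran in parallel. A limma fit with the preparation as a block called 34% of genes, among them Krt8, Krt18 and Epcam (limma's adjusted p = 0.0139, 0.00741 and 0.0456).

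Under the JNK inhibitor the question was whether the libraries labelled Ad-Cre still differed from their controls. Krt18 and Epcam rose, Spp1 fell, and Krt8 was not called. Krt18 measured 65.8, 60.9, 50.6 and 90.6 RPKM with Ad-LacZ + JNK inhibitor and 132.2, 109.5, 90.1 and 91.3 RPKM with Ad-Cre + JNK inhibitor, in the order F1, M1, M2 and F2. The ranges touched only through the F2 control, and the log2 difference was 0.80 (SE 0.23, limma's adjusted p = 0.0404). Krt8 measured 69.5, 92.9, 96.4 and 141.5 RPKM in the controls and 165.6, 144.1, 86.1 and 121.7 RPKM with Ad-Cre. It was higher in 3 of 4 preparations and the groups overlapped widely, with a log2 difference of 0.51 (SE 0.25, limma's adjusted p = 0.178).

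In this comparison 3 of the 6 members tested were called, 2 higher and 1 lower, beside 20.6% of 11598 genes, with a median of 0.25 for the 6 and -0.03 for all genes. By unadjusted p with a fold of 1.5 the number was also 3, beside 17.8%, with the preparation as a block again 3, beside 24.8%, and 2 members (Spp1 and Epcam) had ranges that did not overlap, beside 29.7%. The Krt18 call was lost without F1, M1 or F2 (limma's adjusted p = 0.108, 0.209 and 0.0845), after quantile normalization (0.102) and without the Ad-Cre + JNK inhibitor F2 library alone (0.0534) or the Ad-LacZ + JNK inhibitor F2 library alone (0.0507). On RPKM as deposited the median gene was lower in the Ad-Cre + JNK inhibitor libraries, although their summed RPKM was not: the median log2 difference of all genes lay at -0.142 here and at -0.139 for the inhibitor in Ad-Cre, and changes are given relative to it through the scaling.

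The remaining comparisons took the inhibitor alone, in Ad-LacZ and in Ad-Cre cells. No member was called in either without the preparation as a block, and with it Spp1, described below, was called in Ad-LacZ and Krt18 in Ad-Cre. In Ad-Cre cells Krt18 had the smallest adjusted p of the members, with 84.4, 72.8, 72.1 and 82.0 RPKM without and 132.2, 109.5, 90.1 and 91.3 RPKM with the inhibitor. All 4 treated libraries stood above all 4 untreated ones. The log2 difference was 0.58 (SE 0.21, limma's adjusted p = 0.486). A block for the preparation moved limma's adjusted p to 0.0271.

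Background rates differ between these fits. With the inhibitor in Ad-Cre 0 of 6 members were called beside 0.0174% of 11503 genes (2 genes), 1 of 6 (Krt18) with the block beside 6.76%, and 2 of 6 (Krt18 and Epcam) by unadjusted p with a fold of 1.2, the study's fold for the inhibitor, beside 7.81%. Ranges of Krt18 and Epcam did not overlap there, beside 11.5% of genes. The median of the 6 was 0.40 and that of all genes -0.01. With the inhibitor in Ad-LacZ 0 of 6 were called beside 0.197% of 11657 genes, 1 of 6 (Spp1) with the block beside 0.335%, and 1 of 6 (Spp1) by unadjusted p and fold beside 4.83%. Only the Spp1 ranges did not overlap, beside 4.84%, and the medians were 0.25 and -0.02.

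**Figure D2:**
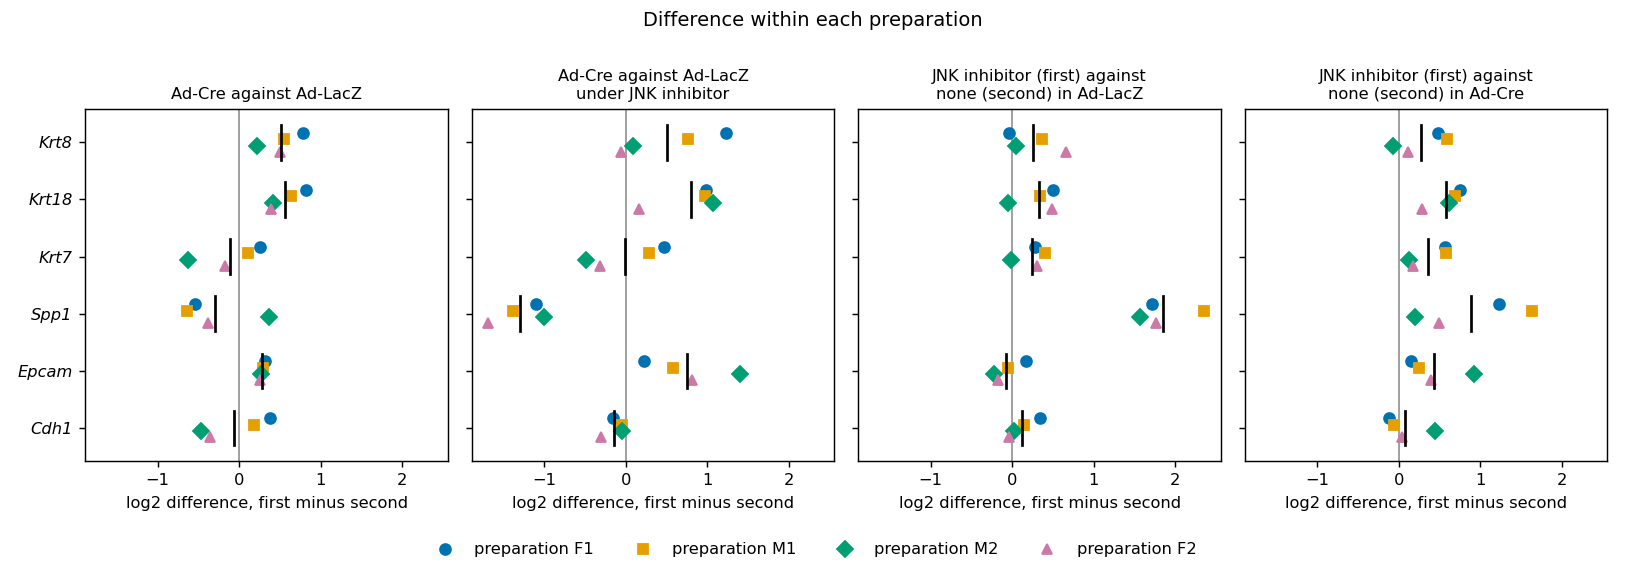
Difference in log2(RPKM + 1) after scaling within each preparation, for the 6 members that passed the filter in 4 comparisons, with 1 marker per preparation and a line at the mean. Krt8 and Krt18 lie above 0 in all 4 preparations for Ad-Cre against Ad-LacZ, and Spp1 lies above 0 in all 4 for the inhibitor in Ad-LacZ and below 0 in all 4 for Ad-Cre against Ad-LacZ under the inhibitor.

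Krt7, the other type II member, was not called where Krt8 was. It measured 38.5, 42.0, 51.0 and 46.4 RPKM with Ad-LacZ and 43.5, 44.2, 33.5 and 43.4 RPKM with Ad-Cre. The groups overlapped, and the log2 difference was -0.11 (SE 0.16, limma's adjusted p = 0.671). With the inhibitor it measured 42.8, 55.6, 50.4 and 62.6 RPKM in Ad-LacZ cells and 60.3, 62.0, 29.7 and 44.8 RPKM in Ad-Cre cells. The M2 libraries were the lowest of both Ad-Cre groups.

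A ratio of members within a library does not depend on how libraries are scaled. Krt7 over Krt8 was 0.547 ± 0.0399 (SD, n = 4) with Ad-LacZ and 0.356 ± 0.0541 with Ad-Cre, and 0.545 ± 0.0795 against 0.377 ± 0.0369 under the inhibitor. In both comparisons the ratio was lower in all 4 preparations and the ranges did not overlap (exact permutation p = 0.0286, and 0.0686 after Benjamini-Hochberg adjustment over 12 ratio comparisons). Such a separation is common: 49.4% of other genes had ratios to Krt8 that did not overlap between Ad-Cre and Ad-LacZ, and 16.7% under the inhibitor, against 7.99% for the inhibitor in Ad-Cre and 6.35% for the inhibitor in Ad-LacZ.

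Krt8 over Krt18 overlapped between the viruses, at 1.56 ± 0.163 with Ad-LacZ and 1.49 ± 0.0574 with Ad-Cre (lower in 3 of 4 preparations, exact permutation p = 0.571). With the inhibitor in Ad-Cre cells it was 1.21 ± 0.176, lower in all 4 preparations (exact permutation p = 0.0286, adjusted 0.0686). The sum of type II over the sum of type I members was 2.37 ± 0.237 with Ad-LacZ, 2.00 ± 0.0238 with Ad-Cre, 2.12 ± 0.546 with Ad-LacZ + JNK inhibitor and 1.67 ± 0.269 with Ad-Cre + JNK inhibitor.

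**Figure D3:**
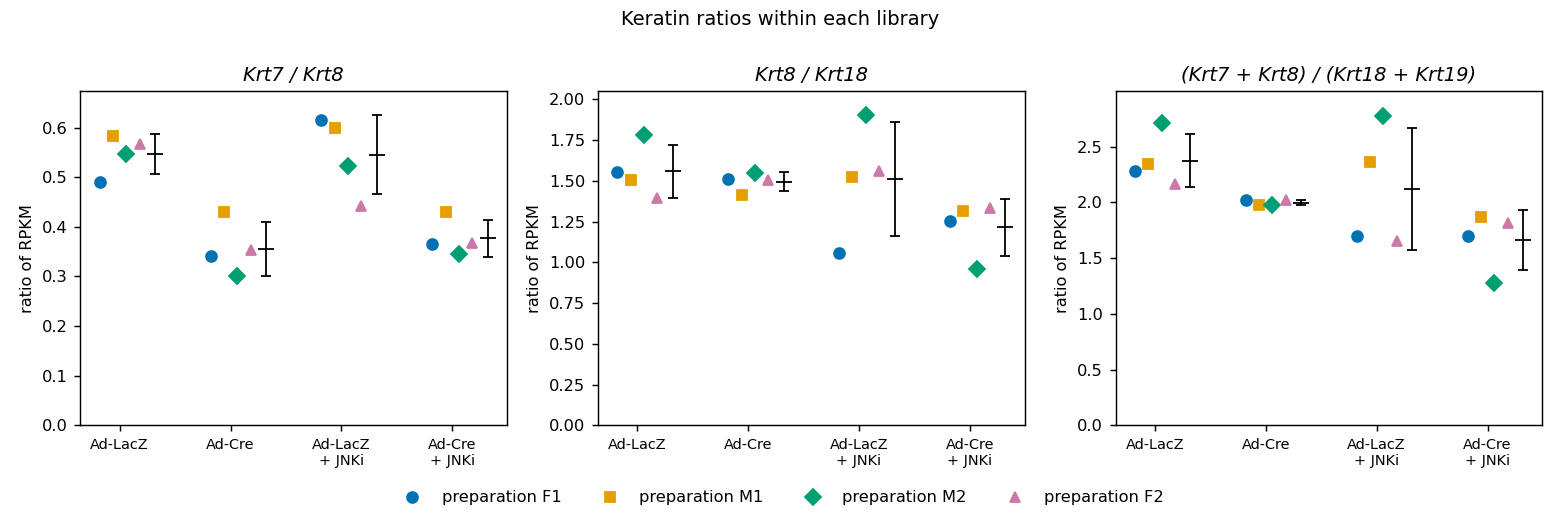
Ratio of RPKM within each library for Krt7 over Krt8, Krt8 over Krt18, and type II (Krt7 and Krt8) over type I (Krt18 and Krt19) members, by group, with mean ± SD of 4 libraries. Krt7 over Krt8 lies between 0.491 and 0.583 with Ad-LacZ and at 0.430 or below with Ad-Cre.

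Other keratins were scarce. Of 18 further keratin genes, 15 stayed under 1 RPKM in all 16 libraries, among them the stratified epithelial keratins Krt5 and Krt14 at 0.0640 RPKM or less, and the 18 summed to between 7.40 and 14.1 RPKM, against 162.5 to 359.1 RPKM for the 4 keratin members. The 3 that passed the filter were Krt10, Krt80 and Krt222. Krt222, a keratin-like gene, fell by 0.55 on the log2 scale in the libraries labelled Ad-Cre (SE 0.13, limma's adjusted p = 0.0227) and by 0.81 under the inhibitor (SE 0.14, limma's adjusted p = 0.00573), from 5.22 ± 0.951 to 3.28 ± 0.789 RPKM and from 5.07 ± 0.407 to 2.26 ± 0.512 RPKM (SD, n = 4). Krt10 and Krt80 were not called in any comparison.

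Intermediate filaments outside the keratins, such as vimentin, desmin and the nuclear lamins, were not called between the viruses (0 of 7 tested of 8, median 0.40 without the inhibitor, where 3 were higher with the preparation as a block, and 0.06 with it). With the inhibitor in Ad-LacZ cells Nes (nestin) fell by 0.99 on the log2 scale (SE 0.13, limma's adjusted p = 0.0245), a call that the block did not keep. In Ad-Cre cells 0 of 7 were called for the inhibitor, and 3 were lower with the block.

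Of the surface adhesion proteins, Epcam was called under the inhibitor and Cdh1 in no comparison of treatments. Epcam measured 58.0, 53.1, 48.8 and 50.8 RPKM with Ad-LacZ, 68.5, 63.4, 60.8 and 64.4 with Ad-Cre, 59.8, 51.2, 41.8 and 48.8 with Ad-LacZ + JNK inhibitor and 70.6, 70.4, 94.3 and 77.6 with Ad-Cre + JNK inhibitor. It was higher with Ad-Cre in all 4 preparations with and without the inhibitor. The log2 difference was 0.28 without the inhibitor (SE 0.15, limma's adjusted p = 0.216, and 0.0476 on values as deposited) and 0.76 with it (SE 0.20, limma's adjusted p = 0.0271). The last call was lost without M1, M2 or F2 (limma's adjusted p = 0.131, 0.0611 and 0.148), after quantile normalization (0.0811), and without the Ad-Cre + JNK inhibitor F2 library (0.0564) or the Ad-LacZ + JNK inhibitor F2 library (0.0795).

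Cdh1 measured 67.9, 78.0, 63.2 and 73.4 RPKM with Ad-LacZ, 83.6, 85.9, 46.7 and 60.1 with Ad-Cre, 79.4, 86.6, 64.3 and 77.6 with Ad-LacZ + JNK inhibitor and 71.6, 76.6, 52.0 and 56.4 with Ad-Cre + JNK inhibitor. Every pair of groups overlapped. With Ad-Cre it was higher in F1 and M1 and lower in M2 and F2, and the log2 difference was -0.07 (SE 0.26, limma's adjusted p = 0.876). Under the inhibitor Cdh1 was lower with Ad-Cre in all 4 preparations, by -0.14 on average (SE 0.22, limma's adjusted p = 0.694), and was not called with the block either (0.384).

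Of 24 genes of epithelial junctions and adhesion, chosen from general knowledge, 22 were tested between the viruses, of which 2 rose and 2 fell, with a median of 0.09 (5 and 3 with the preparation as a block). St14 (matriptase) rose by 0.52 on the log2 scale (SE 0.12, limma's adjusted p = 0.0202), while Tjp1 (the tight junction scaffold ZO-1) fell by 0.51 (SE 0.12, limma's adjusted p = 0.0215) and Ovol2, an epithelial transcription factor, fell by 0.62 (SE 0.15, limma's adjusted p = 0.0272). Under the inhibitor 1 of 23 rose and 3 fell, with a median of 0.02 (2 and 4 with the block). Dsc2 (desmocollin 2) fell by 0.87 (SE 0.13, limma's adjusted p = 0.00256), Cgn (cingulin) by 0.77 (SE 0.15, limma's adjusted p = 0.00845) and Tjp1 by 0.64 (SE 0.16, limma's adjusted p = 0.0212). None of 23 was called for the inhibitor in either virus group, and with the block 1 was lower in Ad-Cre.

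Spp1 had the widest range of the abundant members. In the order F1, M1, M2 and F2 it measured 109, 93.0, 221 and 219 RPKM with Ad-LacZ, 70.7, 57.8, 294 and 176 with Ad-Cre, 332, 481, 657 and 813 with Ad-LacZ + JNK inhibitor and 155, 168, 274 and 226 with Ad-Cre + JNK inhibitor. All 4 libraries of Ad-LacZ + JNK inhibitor stood above the other 12. M2 and F2 were above F1 and M1 in every group.

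Between Ad-LacZ with and without the inhibitor the log2 difference of Spp1 was 1.85 (SE 0.30, limma's adjusted p = 0.0732, exact permutation p = 0.0286), a 3.61-fold difference with the same sign in all 4 preparations. It was called by limma when preparations were a block (limma's adjusted p = 0.0372). With Ad-Cre against Ad-LacZ under the inhibitor Spp1 fell by 1.29 on the log2 scale (SE 0.24, limma's adjusted p = 0.00695), lower in all 4 preparations, and limma's adjusted p was 0.0743 without M1 and 0.0722 without F2. It was not called between the viruses without the inhibitor (-0.30, SE 0.46, limma's adjusted p = 0.683) or for the inhibitor in Ad-Cre (0.89, SE 0.41, limma's adjusted p = 0.65). These comparisons share groups: the Ad-LacZ + JNK inhibitor libraries stand in both comparisons with the largest differences.

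Macrophages and stromal cells also make Spp1, and their markers moved with some of these groups. The 10 macrophage markers summed to 71.1 to 79.4 RPKM with Ad-LacZ, 70.2 to 210.6 with Ad-Cre, 137 to 317 with Ad-LacZ + JNK inhibitor and 174.9 to 294.4 with Ad-Cre + JNK inhibitor, and none was at 0 in all libraries. With the inhibitor in Ad-LacZ 2 of 7 tested rose, Cd68 (log2 difference 1.203, SE 0.13, limma's adjusted p = 0.0161) and Lyz2 (lysozyme, 2.15, SE 0.31, limma's adjusted p = 0.0411), with a median of 0.75. With the preparation as a block only 1 was called higher. Between the viruses 2 of 7 rose, the complement genes C1qb (1.11, SE 0.27, limma's adjusted p = 0.0264) and C1qc (0.91, SE 0.24, limma's adjusted p = 0.0349), with a median of 0.89 (6 higher with the block), and under the inhibitor 0 of 8 were called, with a median of -0.03.

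The 9 stellate cell and fibroblast markers summed to 164.1 to 556.5 RPKM with Ad-LacZ, 177.6 to 1839 with Ad-Cre, 165.5 to 1243 with Ad-LacZ + JNK inhibitor and 126.2 to 775.7 with Ad-Cre + JNK inhibitor, and were highest in M2 in every group. None was called in a comparison of groups without the preparation as a block. With the block 1 was higher between the viruses, 1 higher for the inhibitor in Ad-LacZ and 1 lower for the inhibitor in Ad-Cre. The median of the markers was 1.77 for the inhibitor in Ad-LacZ (5 tested) and -1.18 for the viruses under the inhibitor (7 tested, 4 lower with the block). Their part in the Spp1 result was not tested. In bulk samples, fewer cells of a type and less RNA per cell cannot be told apart.

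**Figure D4:**
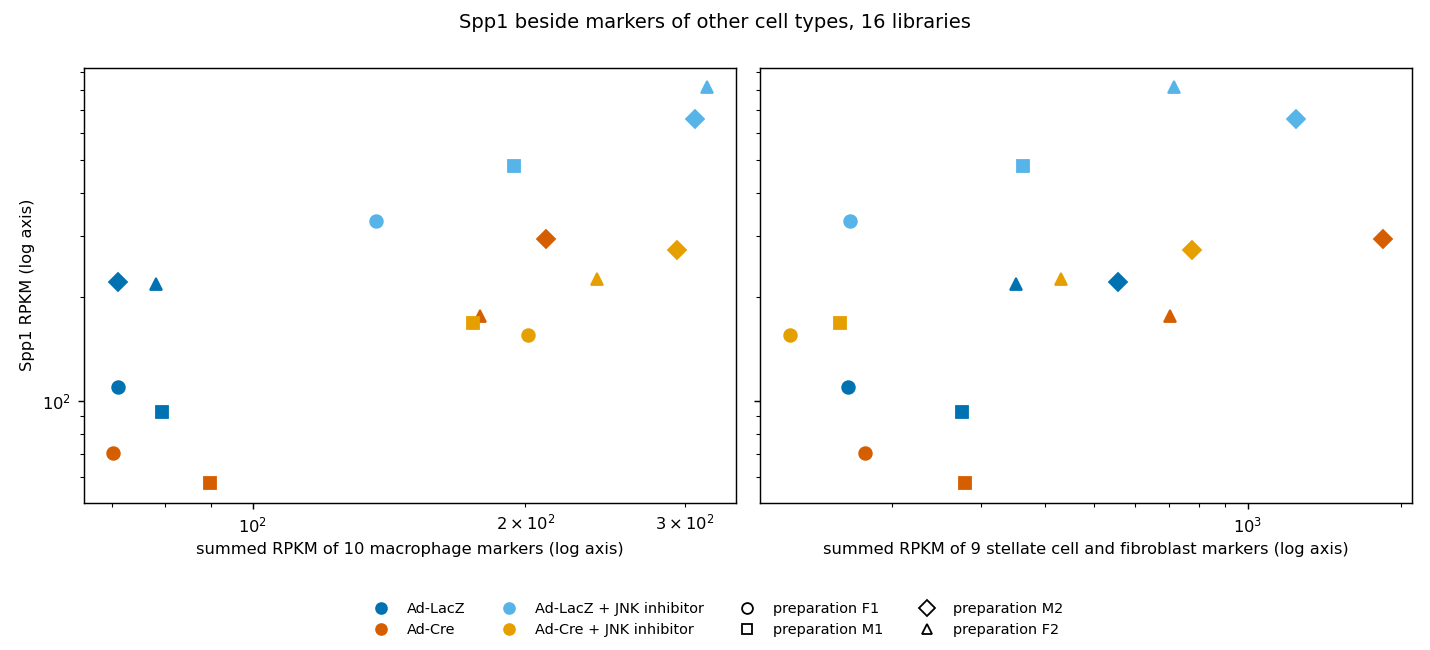
Spp1 RPKM against the summed RPKM of 10 macrophage markers (left) and of 9 stellate cell and fibroblast markers (right) in 16 libraries, on log axes, with colour for the group and shape for the preparation. Macrophage sums and Spp1 are 71.1 to 79.4 and 93.0 to 221 RPKM with Ad-LacZ, and 137 to 317 and 332 to 813 with Ad-LacZ + JNK inhibitor. They are 70.2 to 210.6 and 57.8 to 294 RPKM with Ad-Cre, and 174.9 to 294.4 and 155 to 274 with Ad-Cre + JNK inhibitor.

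The genes most particular to duct cells were near the limit of detection. Cftr held 3, 1, 5 and 1 reads in the Ad-LacZ libraries of F1, M1, M2 and F2, 0, 0, 5 and 2 with Ad-Cre, 2, 0, 9 and 11 with Ad-LacZ + JNK inhibitor and 2, 0, 7 and 2 with Ad-Cre + JNK inhibitor. This is 0 to 0.0556 RPKM. It was listed at 0 in 4 libraries, where a count of 0 allows up to 0.0162 to 0.0270 RPKM (3 reads, counting error only). Sox9 measured 0.292, 0.216, 0.904 and 0.512 RPKM with Ad-LacZ in the order F1, M1, M2 and F2, 0.0848, 0.223, 1.38 and 0.814 with Ad-Cre, 0.171, 0.405, 0.995 and 1.24 with Ad-LacZ + JNK inhibitor and 0.182, 0.175, 1.56 and 0.376 with Ad-Cre + JNK inhibitor. F1 and M1 were the lowest in each group. Neither gene passed the filter of more than 1 RPKM in at least 4 libraries, so neither was tested with it. Without that filter limma's adjusted p for Sox9 was between 0.884 and 0.996 in the 4 comparisons of groups, and for Cftr between 0.771 and 0.952.

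Krt19 measured 0.893, 0.789, 0.914 and 0.670 RPKM with Ad-LacZ, 0.378, 1.45, 1.39 and 0.643 with Ad-Cre, 0.534, 1.92, 2.19 and 33.0 with Ad-LacZ + JNK inhibitor and 0.960, 0.519, 0.451 and 0.349 with Ad-Cre + JNK inhibitor. The 33.0 RPKM of preparation F2 stood for 1560 reads, and the other 15 libraries held 5 to 94. The other 3 libraries of preparation F2 had 0.349 to 0.670 RPKM, so the high level was seen in 1 culture of that preparation. Krt19 passed the filter only over all 16 libraries.

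Other duct genes were high in that library too. Of the 28 other duct genes, 10 had their highest value of the 16 libraries there, and besides Krt19, for which the library was singled out, so did Krt7, Spp1 and, on 11 reads, Cftr, while the library was the highest for 7.16% of all 20843 genes above 0. The next most frequent were Ad-Cre M2, with 5 of the 28 and 19.2% of all genes, and Ad-Cre + JNK inhibitor M2, with 4 of the 28 and 8.32%. Wfdc2, a secreted inhibitor made by duct and other epithelia, was at 5.72 RPKM (166 reads) against at most 0.304 elsewhere. The apical mucin Muc1 was at 3.50 against at most 1.51 and Clu (clusterin) at 106 against at most 66.6 RPKM. Epcam and Cdh1 stood within the range of the other libraries, and the mesothelial marker Msln, at 29.9 against at most 25.8 RPKM, was also highest there, while Upk3b and Lrrn4 of the same list were at 0. The part of other cells in these values was not tested.

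**Figure D5:**
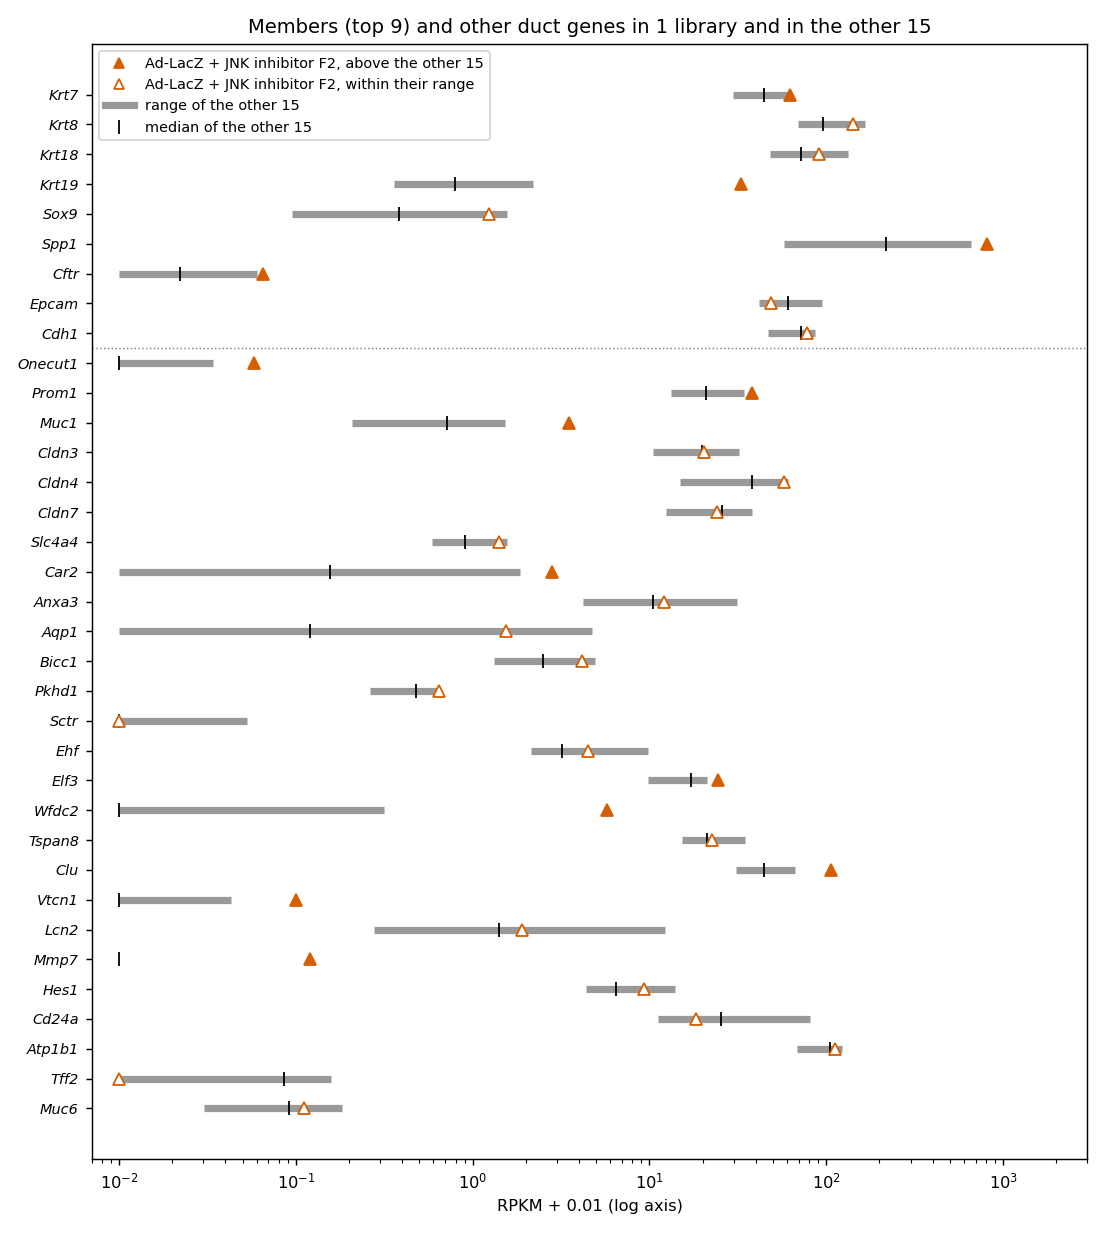
RPKM + 0.01 (log axis) of the 9 members and 26 of the 28 other duct genes in the Ad-LacZ + JNK inhibitor library of preparation F2 (triangles, filled where above all others) beside the range (grey bar) and median (tick) of the other 15 libraries. Krt19 and Wfdc2 lie farthest above the other libraries, and 13 of the 35 triangles are filled.

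Calls among the other duct genes are given here beside the share of all genes tested that were called. Between the viruses 1 of 14 tested rose and none fell, beside 16.5%, with a median of 0.07 (3 and 1 with the block, beside 34%). Under the inhibitor 1 of 15 rose and none fell, beside 20.6%, with a median of -0.02 (1 and 1 with the block, beside 24.8%). In both cases it was Cd24a, a surface protein of many epithelial and immune cells, at 15.0 ± 6.03 RPKM with Ad-LacZ, 39.5 ± 13.2 with Ad-Cre, 18.5 ± 3.92 with Ad-LacZ + JNK inhibitor and 60.3 ± 16.5 with Ad-Cre + JNK inhibitor (SD, n = 4). Its log2 differences were 1.35 (SE 0.23, limma's adjusted p = 0.0085) and 1.77 (SE 0.20, limma's adjusted p = 0.000833). The inhibitor raised Prom1 (prominin 1, an apical membrane protein) in Ad-LacZ cells from 18.9 ± 1.75 to 33.6 ± 3.55 RPKM (log2 difference 0.80, SE 0.12, limma's adjusted p = 0.0442). Prom1 was the only one of 16 called, beside 0.197% of genes, and the median of the 16 was 0.15. None of 15 was called for the inhibitor in Ad-Cre (median 0.05), beside 0.0174% of genes. There the block gave 4 higher and 1 lower, beside 6.76% of genes.

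Lower in the list, 8 of the 28 stayed under 1 RPKM in all libraries, among them the secretin receptor Sctr and the transcription factor Onecut1, both under 0.05 RPKM. The claudins Cldn3, Cldn4 and Cldn7, tight junction proteins, were present at 10.49 to 60.7 RPKM.

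For the remaining cell types between the viruses, 3 of 10 beta cell markers fell (7 with the block), with a median of -1.04. They were Ucn3 (log2 difference -2.10, SE 0.59, limma's adjusted p = 0.0416), G6pc2 (-1.95, SE 0.33, limma's adjusted p = 0.00775) and Neurod1 (-1.30, SE 0.21, limma's adjusted p = 0.00726). Among acinar markers 1 of 2 tested rose, Bhlha15, a transcription factor of secretory cells (0.68, SE 0.18, limma's adjusted p = 0.0346), and 2 were higher with the block. None of 1 mesothelial, 8 endothelial, 5 alpha cell and 4 delta and PP cell markers tested was called, and with the block only the mesothelial marker was, as higher. Under the inhibitor, where Krt18 and Epcam rose, 5 of 10 beta cell markers fell (7 with the block, where 1 rose), with a median of -1.19. Of 4 delta and PP cell markers 1 rose (3 with the block), with a median of 0.88. It was Ppy, the pancreatic polypeptide gene (0.92, SE 0.24, limma's adjusted p = 0.0263). None of 5 alpha cell markers was called (1 higher with the block, median 0.39). Of 3 acinar markers 1 rose, again Bhlha15 (1.10, SE 0.28, limma's adjusted p = 0.0219), and 2 were higher with the block. None of 8 endothelial markers (median 0.37) or of 1 mesothelial marker was called. The part of these cell types in the member results was not tested.

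Each preparation was cultured under all 4 conditions, so preparations could be compared with the treatment held fixed. The 4 cultures of a preparation are not separate animals. Cdh1, Spp1 and Krt18 differed, 3 of 7 members tested, beside 36.2% of 12274 genes. Cdh1 was highest in M1 and lowest in M2 in each of the 4 groups, with means over the 4 cultures of 81.8 and 56.6 RPKM and a log2 difference of 0.75 (limma's F test, adjusted p = 0.00166). For Spp1 the means were 362 RPKM in M2, 358 in F2, 200 in M1 and 167 in F1, and M2 and M1, the highest and lowest after scaling, differed by 0.97 on the scaled log2 values (limma's adjusted p = 0.00652). Krt18 differed by 0.55 between F1 and M2 (limma's adjusted p = 0.0478), a call that was lost without the filter (0.0712), on values as deposited (0.30), with quantile normalization (0.296) and without F1, M1 or M2 (0.121, 0.0823 and 0.446). Sox9, tested only without the filter, averaged 1.21 RPKM in M2, 0.734 in F2, 0.255 in M1 and 0.183 in F1 (limma's adjusted p = 0.00482). The 7 stellate cell and fibroblast markers tested differed as well, Col1a1 by 2.93 on the log2 scale (limma's adjusted p = 0.000137), as did 10 of 18 other duct genes and 9 of 10 beta cell markers.

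Whether the inhibitor altered the difference between viruses was tested as an interaction over all 16 libraries. No member and no gene was called (0 of 12274, 0%), while 384 genes had an unadjusted p under 0.05, and limma's voom on the reads recovered from the RPKM also called 0, and a quantile scaling 1. The largest members by size were Krt19, which rests on 1 library (-1.57, SE 0.87), Spp1 (-0.99, SE 0.55), and Epcam (0.48, SE 0.24), each with an adjusted p of 0.999.

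The genes most like 3 of the members were taken by Pearson's r of the scaled log2 values over the 16 libraries, among 12274 genes. The libraries share preparations, groups and depth, and r is given as a description. For Krt19 they were Igkv1-117 (0.846), Clu (0.816), Gprc5a (0.798), Mzb1 (0.789) and Ighg2c (0.773), which with the exception of Gprc5a had r between 0.404 and 0.474 once the Ad-LacZ + JNK inhibitor F2 library was left out, and Gprc5a 0.706. Immunoglobulin genes share sequence, and their values are uncertain. For Krt8 they included Txn1 (thioredoxin, 0.919), Timm10b (0.919), Urm1 (0.917) and Snx8 (0.911), and for Cdh1 Taok2 (0.958), Synrg (0.953), Scnn1b (0.952), Fam32a (0.940) and Adgrg1 (0.938).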

How the data were processed

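RNA of dispersed islet cells was sequenced from poly(A) libraries as paired 150-base reads. The authors aligned the reads to the mouse genome (GRCm38 per the labels) and deposited RPKM for 25105 genes. The step from counts to RPKM is not given in the sources used here. Left out were 3 value columns whose names match no sample label. Low RPKM rise in steps of whole reads: with exon lengths of GENCODE M21, 93.1% of values under 50 reads were whole within 0.05 reads, which gave the depth of each library. Floors cover counting error only.

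Libraries were grouped by their labels. RPKM were scaled by unweighted TMM factors (trim 30% of ratios and 5% of levels) and a pseudocount of 1 was added. The filter asked for more than 1 RPKM in 4 or more of the libraries fitted, and genes were compared on the log2 scale with limma 3.58.1 (eBayes with trend, R 4.3.3), with Benjamini-Hochberg adjustment over all genes tested. Each treatment comparison used its 8 libraries. The interaction and the preparations used all 16. Single values had exact two-sided permutation tests (70 arrangements), which took the libraries as unpaired. Tables were made with Python 3.11.15, pandas 2.3.3 and scipy 1.17.1. The procedure was tested on simulated data.

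Preparation labels pair the libraries, since the study describes parallel cultures of the same islets, and residuals of same-labelled libraries correlated at 0.131 to 0.826. A fit blocked by preparation is quoted for calls of members that it alters, and for Krt8 and Krt18 between the viruses. In the comparisons described, it is also quoted for list counts it moves over 1.5 times. P-values measure the spread between these libraries.

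All 9 members are described with every value. From the other lists, up to 3 called genes with the smallest adjusted p were named per comparison, and further genes were picked with their values already known (claudins, Sctr, Onecut1, Krt5, Krt14, Krt10, Krt80, Muc1, Wfdc2, Clu, Msln, Upk3b, Lrrn4, Cpa1, Amy2a5 and Cela2a). Members and lists were chosen with earlier results of these data known, and the lists come from general knowledge. Alternatives were a pseudocount of 0.1, no filter, RPKM as deposited, quantile normalization, no trend, all 16 libraries in 1 fit, the block, and each preparation left out. Recovered reads in limma's voom and the exclusion of single libraries were added after the data were seen. Some genes that these rules name are not reported here. Promoter windows are from RefSeq.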

Additional observations from a re-analysis of the deposited data

Results flagged for a closer look

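In 3 of 36 groups of 4 libraries, 1 library stood apart from the other 3 by Dixon's criterion for 4 samples at the 95% level. Chance alone would mark about 1 group in 20. Krt7 measured 33.49 RPKM in the Ad-Cre library of M2, below 43.4 to 44.2 RPKM in the other 3. Krt19 measured 33.02 RPKM in the Ad-LacZ + JNK inhibitor library of F2, above 0.534 to 2.19 RPKM in the others. Sox9 measured 1.561 RPKM in the Ad-Cre + JNK inhibitor library of M2, above 0.175 to 0.376 RPKM in the others.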

How the results depend on the processing

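Of 514 alternative values of 38 member results, 456 kept their direction and side of the threshold, 29 lost and 7 gained a call, and 22 changed sign. With preparations left out, between 0 and 2 members were called when comparing Ad-Cre with Ad-LacZ (2 with all), and 0 to 2 under the inhibitor (3 with all), where leaving out either F2 library alone gave 1. The fit of all 16 libraries gave 0 for Ad-Cre against Ad-LacZ. Quantile normalization gave 1 under the inhibitor, also by the study's thresholds. Both numbers were 3 in the fit without changes, and by the study's thresholds the settings ran from 1 to 4. With the preparation as a block, 1 member was called for the inhibitor in Ad-Cre and 1 in Ad-LacZ (0 without), and the same on recovered reads with the block. By the study's thresholds, the inhibitor in Ad-Cre (2 members) gave 1 on RPKM as deposited, 1 with quantile normalization, 4 with the block, 5 with the block on recovered reads and 0 to 2 with preparations left out. In Ad-LacZ (1 member) these were 2 with the block, 2 with the block on recovered reads and 1 to 3 left out, and for Ad-Cre against Ad-LacZ (0 members) 0 to 2 left out. The block changed no other member's call but that of Epcam.

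The changes of sign were in log2 differences that no fit called. With preparations left out Krt7 for Ad-Cre against Ad-LacZ ran from -0.229 to 0.064 and Cdh1 from -0.217 to 0.062, Krt7 under the inhibitor from -0.175 to 0.146, Cdh1 for the inhibitor in Ad-Cre from -0.045 to 0.126 (0.167 without the Ad-Cre + JNK inhibitor F2 library alone), and in the interaction Krt8 from -0.146 to 0.191 and Cdh1 from -0.206 to 0.098. Krt7 under the inhibitor was 0.010 on recovered reads, with and without the block. For the inhibitor in Ad-Cre, Krt8 was -0.021 with quantile normalization, and Cdh1 was -0.081 on RPKM as deposited and -0.109 with quantile normalization. In the interaction, Krt7 was -0.034 and -0.002 and Krt8 -0.138 and -0.240 by the same settings. The cause was not tested.

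Over all genes, calls for Ad-Cre against Ad-LacZ (1917) were 3936 with the block and 165 to 902 with preparations left out, and under the inhibitor (2393) 323 to 3232. For the inhibitor in Ad-Cre (2) they were 778 with the block and 57 with all 16 libraries, and in Ad-LacZ (23) 39 with the block, 99 with the block on recovered reads, 11 with all 16 libraries, 7 on RPKM as deposited, 6 without the filter and 1 to 3 with preparations left out. On recovered reads without the block they were 1964, 2238, 2 and 20 in this order. Among calls under the inhibitor 49.1% were higher, against 31.1% on RPKM as deposited. For the inhibitor in Ad-LacZ the share was 73.9%, against 85.7%. Cftr and Sox9, at 0 to 131 reads a library, were too shallow for small differences to be detectable.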

Other observations

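Genes at 1 RPKM or more in a library and more than 3 times the highest of the other 15 were counted after the Krt19 value was seen. There were 85 such genes in the Ad-LacZ + JNK inhibitor library of F2, of which Krt19 was the only member and 60 were immunoglobulin genes. The Ad-LacZ + JNK inhibitor library of M2 had 41, 35 of them immunoglobulin genes, and the Ad-Cre library of M2 had 32, of which 2 were. The other 13 libraries had 0 to 9.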
